A study of Rattus norvegicus with 96 samples.

Results

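Glutamate transporters and Homer scaffolds are here a set of 8 genes that act at excitatory synapses: the uptake carriers Slc1a1, Slc1a2 and Slc1a3, the vesicular transporter Slc17a6, the scaffolds Homer1, Homer2 and Homer3, and the postsynaptic scaffold Dlg4. The members are all probe sets that the platform annotation gives to 1 of these symbols and to no other gene, which makes 20 of 31042 probe sets, for 8 of 14217 genes. Homer1 had 5 probe sets, Dlg4 4, Slc1a3 3, Slc1a1, Slc1a2 and Homer3 2 each, and Slc17a6 and Homer2 1 each. A further probe set that the annotation shares between Homer1 and another gene was left out. All 8 genes had a probe set, and no filter on low values was applied.

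RNA from the central nucleus of the amygdala, a forebrain region of fear and stress responses, was measured on 96 Affymetrix arrays from 10 rat lines. The lines form 5 pairs, in each of which 1 line was bred to drink much alcohol by choice (preferring) and the other little (non-preferring): HAD1 with 9 arrays was set against LAD1 with 10, HAD2 against LAD2 with 10 each, P against NP with 10 each, AA against ANA with 10 each, and sP with 8 against sNP with 9. No agent or altered gene is given in the labels for any line, and they give neither sex nor age nor alcohol exposure of the animals. Animals of a line share descent, so a difference within 1 pair compares 2 breeding lines, and p-values rest on how much arrays within a line vary.

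Glutamate released at a synapse is loaded into vesicles by vesicular transporters and is cleared from the cleft by uptake carriers, most of it by astrocytes. On the receiving side, Dlg4 anchors glutamate receptors in the postsynaptic density, and Homer proteins link metabotropic glutamate receptors to Shank scaffolds and to calcium channels of internal stores. Many neurons of the central amygdala use GABA, while Slc17a6 marks glutamate neurons of neighbouring regions such as the medial amygdala, hypothalamus and thalamus.

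Some arrays went against their labels. On the probe sets that best separate the lines of a pair, 15 of 96 arrays lay on the side of the other line in both of 2 scores taken over different chromosomes. These doubted arrays are HAD1 28 and LAD1 37, then P 1, P 9, NP 1 and NP 9, then AA 15, AA 17, AA 19, ANA 16 and ANA 18, and sP 2, sP 9, sNP 8 and sNP 9, with 0 in HAD2 and LAD2. The arrays sP 2 and sNP 2 differed with an SD of only 0.09 log2 units over all probe sets, where the closest arrays otherwise had 0.16. LAD1 36 is called HAD1 in its source name and was kept as LAD1. Results are given with all arrays as labelled and, where it changes them, without the doubted arrays, a choice that was made from measured values and favours larger differences.

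The tissue was checked against marker lists. Of the markers of the central amygdala and other GABA neurons, 9 of 11 lay above the array median in all 10 lines, as did 13 of 13 astrocyte markers, 7 of 7 oligodendrocyte markers and 7 of 9 microglia markers. Cortical and basolateral excitatory neurons were at 2 of 8, striatal neurons at 4 of 7, neurons of Slc17a6-using regions at 5 of 9 and choroid plexus at 0 of 4. The 3′ to 5′ log2 ratio of the GAPDH control probe sets, a measure of RNA integrity and labelling, averaged between 3.33 and 4.09 in the 4 HAD and LAD lines and between 0.20 and 0.43 in the other 6. Levels were therefore tested only within a pair. They are log2 values made by the RMA method, a difference of 1 being a doubling, and a level on 1 probe set says nothing about the level on another.

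Within pairs, 1 of the 20 probe sets passed the test in 1 of the 5 pairs. It was a probe set of Slc1a3 in HAD2 and LAD2, where 4.09% of all probe sets passed limma's test at an adjusted p under 0.05. In HAD1 and LAD1, 0 of 20 passed, against 0.963% of all probe sets. In P minus NP, in AA minus ANA and in sP minus sNP, 0 of 20 passed, against 0% of all probe sets in each. At an unadjusted p under 0.05 in limma, 5 of 20 passed in HAD1, 4 in HAD2, 0 in P, 4 in AA and 1 in sP, beside 11%, 16.4%, 4.91%, 4.92% and 4.32% of all probe sets. Without the doubted arrays, 1 of 20 passed in HAD1, which was Homer2, against 2.56% of all, and 0 of 20 passed in P, AA and sP, against 1.62%, 1.8% and 1.75%.

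The differences were mostly small. The median size of the 20 differences, whatever their sign, was 0.13 log2 units in HAD1 minus LAD1, against 0.06 over all probe sets. It was 0.07 against 0.07 in HAD2 minus LAD2, 0.08 against 0.05 in P minus NP, 0.14 against 0.06 in AA minus ANA and 0.08 against 0.04 in sP minus sNP. The signed median ran from -0.05 in AA to 0.06 in sP, and 12, 12, 6, 7 and 13 of the 20 differences were positive in HAD1, HAD2, P, AA and sP. The 95% interval of a difference reached, at the median probe set, from 0.18 log2 units to either side in HAD2 to 0.26 in P.

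**Figure D1:**
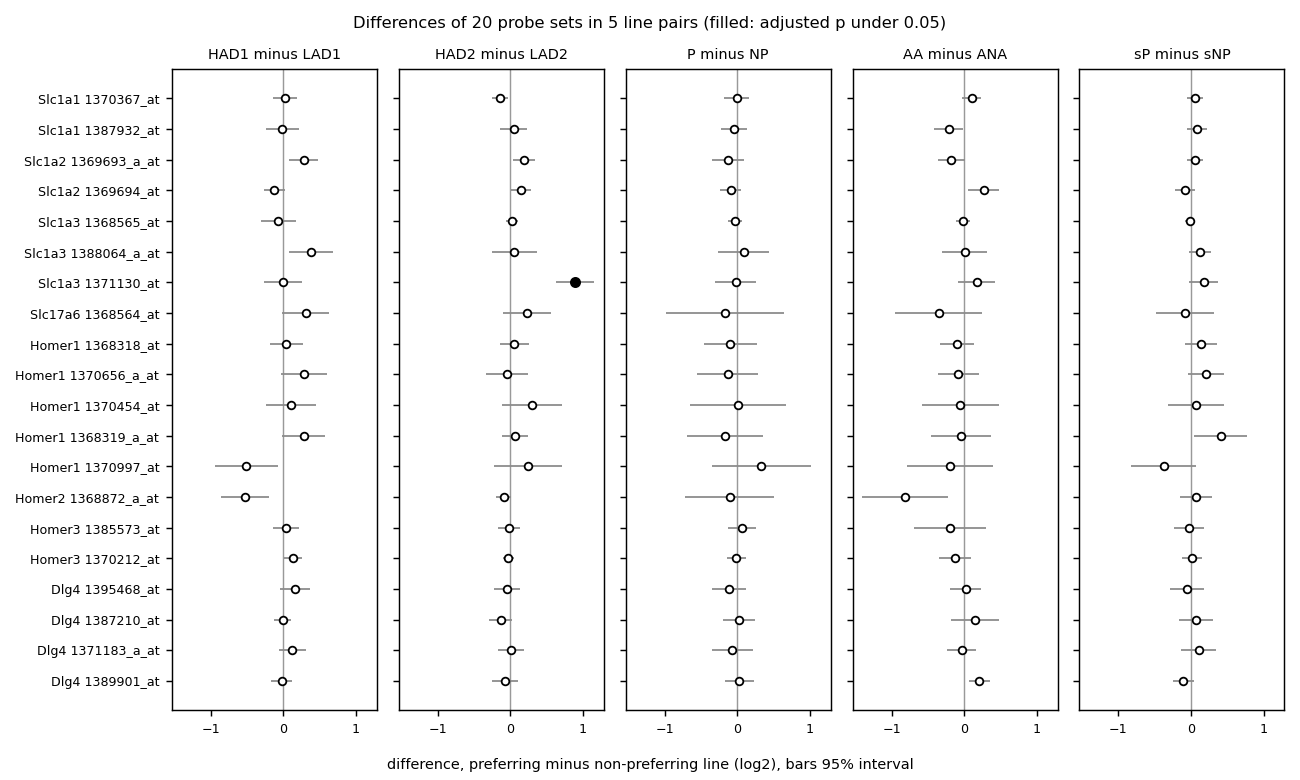
The differences of the 20 probe sets are plotted for the 5 line pairs, with the log2 difference, preferring minus non-preferring line, on the horizontal axis and bars for the 95% interval. The single filled point is Slc1a3 1371130_at in HAD2 minus LAD2 at 0.89, and Homer2 lies at -0.53 in HAD1 and -0.82 in AA with wide intervals.

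In the mean of the 5 differences 1 of 20 probe sets passed, again Slc1a3 1371130_at, against 0.986% of all probe sets. At an unadjusted p under 0.05, 2 of 20 passed there, this one and Homer2, against 7.8% of all. Without the doubted arrays 2 of 20 passed, Slc1a3 1371130_at and Homer2, against 2.9% of all. The F test of whether the 5 differences vary among pairs was passed by 3 of 20, both probe sets of Slc1a2 and Slc1a3 1371130_at, against 4.54% of all, and by 3 of 20 without the doubted arrays, against 10.5%. One of the 20, Slc1a3 1388064_a_at, was positive in 5 of 5 pairs, where 5.21% of all probe sets had 1 sign in all pairs. Its differences ran from 0.01 in AA to 0.38 in HAD1, and their mean was 0.13 (SE 0.07, limma adjusted p = 0.662).

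Slc1a3 encodes a glutamate carrier of astrocytes. Its probe set 1371130_at was higher in HAD2 than in LAD2, and no array of one line reached the range of the other. The lowest, median and highest levels were 8.36, 8.79 and 9.41 in HAD2 and 7.52, 7.89 and 8.34 in LAD2. All 10 HAD2 arrays thus lay above all 10 LAD2 arrays, a separation without overlap that 1 of 20 member probe sets and 0.86% of all probe sets had in this pair. In the other pairs 0 of 20 had it, against 0.0193% of all probe sets in HAD1, 0% in P and in AA, and 0.00966% in sP. The difference was 0.89 (SE 0.13, 95% interval 0.63 to 1.16, limma adjusted p = 6.27e-05). A change in the number of cells of a type and in the RNA per cell cannot be told apart in bulk tissue, here as in every comparison below. The call held in all 27 alternatives run on it, with differences from 0.83 to 0.94 and adjusted p up to 0.000189 in limma.

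The other pairs did not show a difference of that size on 1371130_at. The levels were 7.83, 8.23 and 8.64 (lowest, median, highest) in HAD1 and 7.81, 8.20 and 8.79 in LAD1, which overlap almost entirely, with a difference of -0.0025 (SE 0.13). In P they were 7.06, 7.54 and 8.07 and in NP 7.22, 7.53 and 8.28, with a difference of -0.02 (SE 0.13). AA arrays spread narrowly, at 8.09, 8.21 and 8.49, inside the range of ANA at 7.31, 8.23 and 8.57, with a difference of 0.17 (SE 0.12). In sP they were 8.16, 8.41 and 8.75 and in sNP 8.05, 8.26 and 8.49, with a difference of 0.17 (SE 0.09). The variation among pairs passed limma's F test (adjusted p = 0.000462), and HAD2 had the highest mean of the 10 lines, at 8.82 ± 0.34 (SD, n = 10). The mean over pairs was 0.24 (SE 0.06, limma adjusted p = 0.0132). It was 0.08 without HAD2 and LAD2 (adjusted p = 0.851 in limma), so that the call of the mean rests on this pair. With the 5 pairs as the replicates the mean had an adjusted p of 0.999 in limma. In that setting 0 of 31042 probe sets passed, so it says nothing particular about Slc1a3.

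The other probe sets of Slc1a3 gave smaller differences in HAD2 and LAD2. On the brightest, 1368565_at, the levels were 13.54, 13.77 and 13.87 in HAD2 and 13.61, 13.73 and 13.82 in LAD2. The LAD2 arrays lay inside the range of the HAD2 arrays, and the difference was 0.03 (SE 0.04, 95% interval -0.05 to 0.11). On 1388064_a_at the mean of the HAD2 arrays was 7.45 ± 0.44 and that of the LAD2 arrays 7.39 ± 0.27 (SD, n = 10 each), a difference of 0.06 (SE 0.15, 95% interval -0.25 to 0.37). The intervals of both leave out the 0.89 of 1371130_at. The probe sequences, and with them the stretch of the transcript that each probe set reads and any base difference between the lines under a probe, were not analysed here. The 3 probe sets also varied differently from array to array: with the mean of each line removed, 1368565_at and 1371130_at had a Pearson r of 0.45 over 96 arrays, while 1388064_a_at had an r of -0.03 with the first and -0.0042 with the second.

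Astrocyte markers and RNA quality are given beside the Slc1a3 result. Of 13 astrocyte markers measured, 1 was higher in HAD2 than in LAD2, Gjb6, a gap junction gene, at 0.28 (limma adjusted p = 0.0131), and 0 were lower, in a pair where 3.75% of all genes passed. Their median difference was 0.05, and the mean of the list per array ran from 12.08 to 12.34 in HAD2 and from 12.04 to 12.32 in LAD2. The GAPDH log2 ratio averaged 3.43 with an SD of 0.58 over the 10 HAD2 arrays and 3.33 with an SD of 0.26 over the 10 LAD2 arrays. Of the other marker lists, 1 of 9 microglia markers was higher in HAD2 and 1 lower, P2ry12 at 0.64 and Cx3cr1 at -0.30. Only 2 of the 9 had positive differences, and the median of the list was -0.23. Positive differences were found in 2 of 11 GABA neuron markers (median -0.14) and 2 of 7 striatal markers (median -0.11). Of 7 oligodendrocyte markers 5 were positive (median 0.11). Of 6 endothelial markers 1 was higher and 1 lower, Abcb1a, a drug efflux pump, at 0.66 and Tek, a receptor of vessel growth, at -0.28 (limma adjusted p = 0.00933 and 0.0235). The part of these markers in the Slc1a3 result was not tested. With the GAPDH ratio as a covariate the difference of 1371130_at was 0.86 (limma adjusted p = 4.26e-05).

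**Figure D2:**
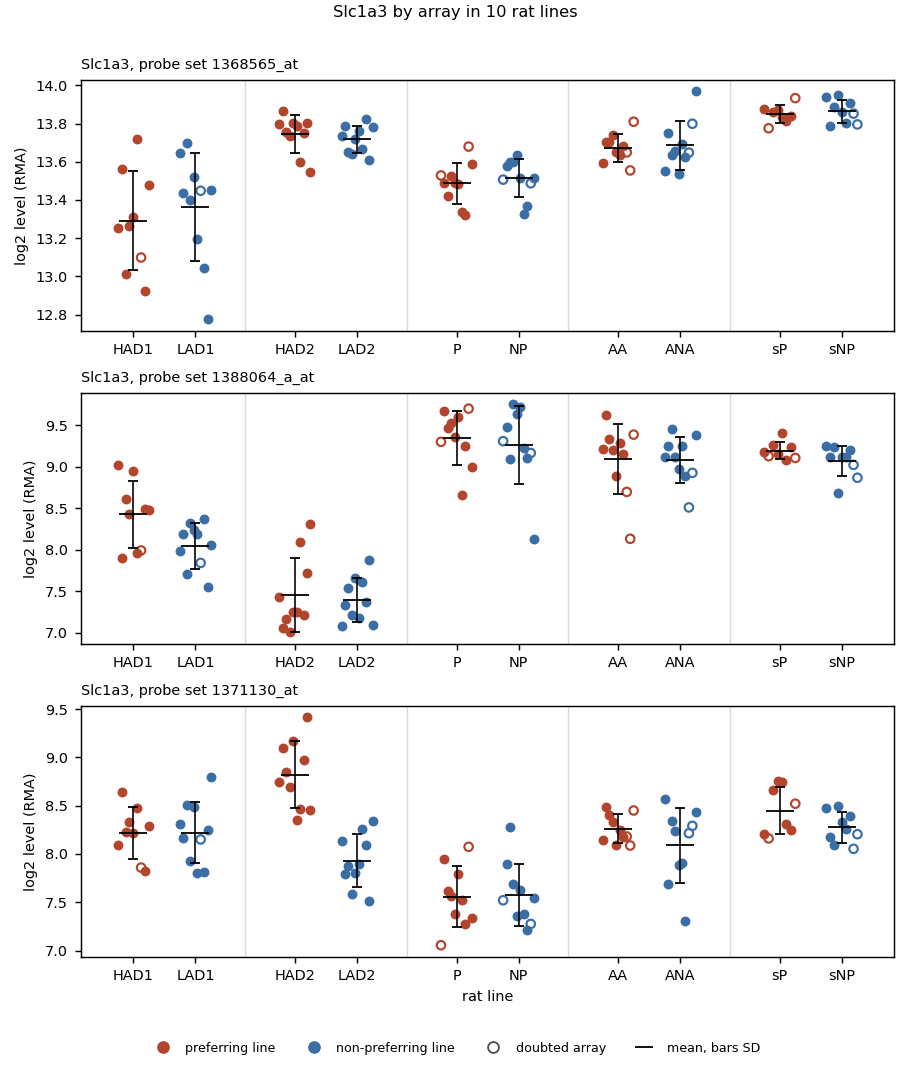
The log2 levels of the 3 Slc1a3 probe sets are plotted by array for the 10 lines, the preferring line left of its partner, with open points for doubted arrays and bars for mean and SD. In the lowest panel the 10 HAD2 arrays at 8.36 to 9.41 lie above the 10 LAD2 arrays at 7.52 to 8.34, and in the other panels these lines overlap.

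On the brightest Slc1a3 probe set, 1368565_at, no pair passed. The levels were 12.92, 13.27 and 13.72 in HAD1 and 12.78, 13.44 and 13.70 in LAD1. P had 13.32, 13.49 and 13.68, and NP 13.33, 13.52 and 13.64. The spread was wider in the first pair, with SDs of 0.26 in HAD1 and 0.28 in LAD1 but 0.11 in P and 0.10 in NP. AA had 13.55, 13.67 and 13.81, and ANA 13.54, 13.65 and 13.97. Levels were 13.78, 13.85 and 13.93 in sP and 13.79, 13.86 and 13.95 in sNP. The lines overlapped in each of these pairs, with differences from -0.07 in HAD1 to -0.01 in AA and sP. Within lines this probe set followed the GAPDH ratio (r = 0.63, rho = 0.48 over 96 arrays, and r from -0.30 to 0.85 within pairs). The probe set 1388064_a_at ran against that ratio (r = -0.61, rho = -0.62, and r from -0.92 to -0.11 within pairs).

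Slc1a2 encodes the main glutamate carrier of forebrain astrocytes. Neither of its 2 probe sets passed within a pair, but on both the difference varied among the 5 pairs. On the brighter one, 1369693_a_at, the levels were 7.01, 7.47 and 7.89 in HAD1 and 6.87, 7.24 and 7.47 in LAD1, with a difference of 0.28 (SE 0.10, limma adjusted p = 0.220). In HAD2 they were 7.49, 7.71 and 8.01 and in LAD2 7.26, 7.62 and 7.71, with a difference of 0.19 (SE 0.07, limma adjusted p = 0.188). The preferring arrays were on balance the higher ones in both pairs, with overlap. P had 7.72, 8.07 and 8.56 and NP 7.79, 8.20 and 8.63, a difference of -0.13 (SE 0.11). AA had 8.03, 8.21 and 8.42 and ANA 8.11, 8.34 and 8.96, a difference of -0.18 (SE 0.09). In sP the levels were 7.93, 8.08 and 8.36 and in sNP 7.95, 8.05 and 8.15, a difference of 0.05 (SE 0.05). The F test over the 5 differences gave an adjusted p of 0.0317 in limma, and the mean over pairs was 0.04 (SE 0.04).

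The dimmer Slc1a2 probe set, 1369694_at, varied among pairs as well (limma adjusted p = 0.0210), but not in the same order of pairs. HAD1 had 6.63, 6.75 and 7.13 and LAD1 6.65, 6.97 and 7.11, a difference of -0.13 (SE 0.07) where the brighter probe set had 0.28. HAD2 had 6.86, 7.06 and 7.22 and LAD2 6.56, 6.94 and 7.11, a difference of 0.15 (SE 0.07). AA had 6.97, 7.24 and 7.47 and ANA 6.55, 6.92 and 7.38, a difference of 0.27 (SE 0.10) where the brighter probe set had -0.18. The signs of both probe sets were thus opposite in HAD1, AA and sP and alike in HAD2 and P. P had 7.08, 7.26 and 7.46 and NP 7.04, 7.34 and 7.69, a difference of -0.09 (SE 0.07). Levels in sP were 7.11, 7.25 and 7.39 and in sNP 7.07, 7.32 and 7.58, a difference of -0.08 (SE 0.07). All lines overlapped their partners, and within lines the 2 probe sets had an r of only 0.19 over 96 arrays. Both calls of variation were lost without HAD1 and LAD1 (adjusted p = 0.197 on the brighter and 0.0801 on the dimmer probe set in limma). They were also lost without HAD2 and LAD2 (adjusted p = 0.146 and 0.0849) and without AA and ANA (adjusted p = 0.144 and 0.208). Without HAD2 and LAD2, on fewer pairs, the F values were 4.96 and 5.70, against 4.92 and 5.30 with all pairs. Over all probe sets 409 passed there, against 1409 with all pairs. The F values were 3.89 and 5.11 without HAD1 and LAD1, and 4.03 and 3.53 without AA and ANA.

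**Figure D3:**
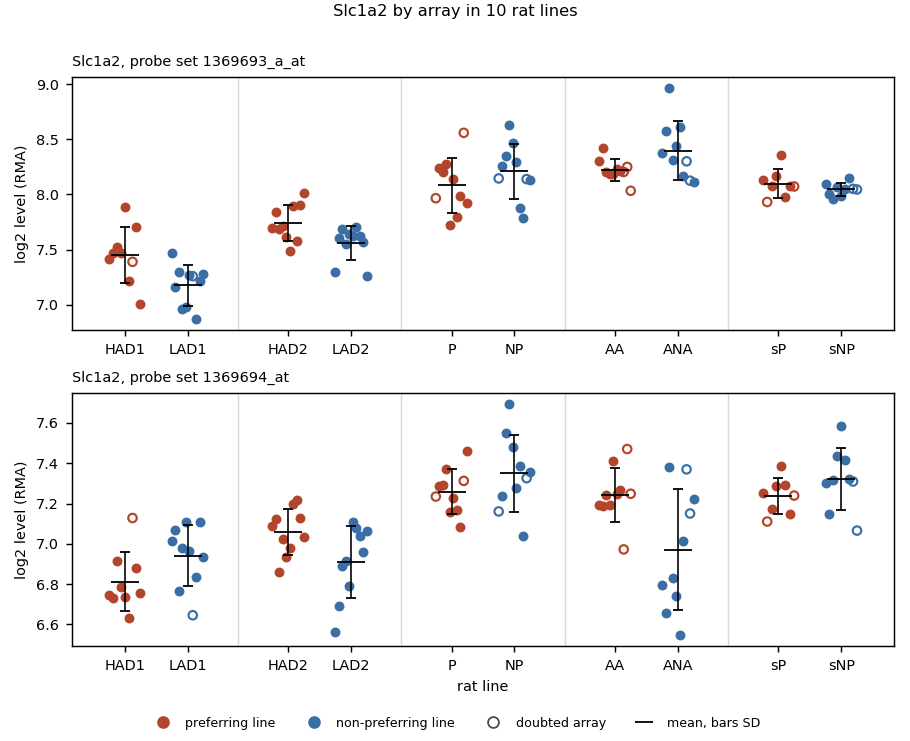
The log2 levels of both Slc1a2 probe sets are plotted by array for the 10 lines, the preferring line left of its partner, with open points for doubted arrays and bars for mean and SD. In the upper panel the HAD and LAD line means lie between 7.17 and 7.74 and those of the other lines between 8.05 and 8.40, and every line overlaps its partner in both panels.

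Slc1a1 encodes the uptake carrier of neurons, which also carries cysteine. Neither probe set passed in any pair. The brighter one, 1370367_at, was the steadiest of the members across lines, with line means between 11.01 in P and 11.29 in LAD2. HAD1 had 10.998, 11.32 and 11.45 and LAD1 11.01, 11.22 and 11.46. HAD2 had 10.96, 11.15 and 11.44 and LAD2 11.11, 11.29 and 11.41, and this pair gave the only difference with an interval that left out 0, at -0.14 (SE 0.05, limma adjusted p = 0.190). Levels in P were 10.69, 10.97 and 11.45 and in NP 10.67, 11.08 and 11.23. The lines overlapped in each of these pairs. In AA they were 10.93, 11.25 and 11.50 and in ANA 10.89, 11.13 and 11.35, a difference of 0.10 (SE 0.06). The sP arrays had 11.04, 11.23 and 11.38 and the sNP arrays 10.98, 11.18 and 11.28. The second probe set, 1387932_at, had its largest difference in AA minus ANA, at -0.21 (SE 0.10, limma adjusted p = 0.983), opposite in sign to the first, and the other 4 pairs lay between -0.04 and 0.08.

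Slc17a6 encodes a vesicular glutamate transporter. Its 1 probe set had the highest SD within a single line of all 20, at 0.97 in P. The SD was 0.93 in NP and 0.28 in LAD1. HAD1 had 10.49, 11.08 and 12.05 and LAD1 10.37, 10.90 and 11.18, a difference of 0.31 (SE 0.16). HAD2 had 10.28, 10.81 and 11.41 and LAD2 9.62, 10.60 and 11.16, a difference of 0.23 (SE 0.16). P had 7.25, 9.51 and 10.24 and NP 8.27, 9.25 and 11.49, a difference of -0.16 (SE 0.39). The P and NP arrays thus spread over several log2 units within a line. The highest NP value is the doubted array NP 1. Without the doubted arrays the difference of P minus NP was 0.03 (SE 0.37). AA had 7.46, 8.72 and 9.94 and ANA 8.11, 9.12 and 9.85, a difference of -0.35 (SE 0.29). Levels in sP were 8.05, 8.79 and 9.45 and in sNP 8.06, 8.88 and 9.48, a difference of -0.08 (SE 0.19). The lines overlapped in all 5 pairs, and the interval of P minus NP, from -0.98 to 0.65, allows differences in either direction. The 4 HAD and LAD line means, 10.58 to 11.16, lay above the other 6, 8.72 to 9.34, and so did their GAPDH ratios. Within lines Slc17a6 had an r of -0.02 with that ratio over 96 arrays, and from -0.20 to 0.13 within pairs. The part of RNA quality in the line levels was not tested.

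The array-to-array pattern of Slc17a6 was most like that of 3 other genes. With line means removed, Mab21l1, a developmental regulator, had an r of 0.88 with it over 96 arrays, and from 0.83 to 0.92 within each of the 5 pairs. Prph, a neuronal intermediate filament, followed with 0.71 (0.47 to 0.82), and Akap12, an anchor of protein kinase A, with 0.71 (-0.06 to 0.90). The arrays share tissue dissection, labelling and scaling, and these values are descriptions. The probe sets of Homer1 ran against Slc17a6 over the 96 arrays, with r from -0.51 to -0.39, as did 1387210_at and 1371183_a_at of Dlg4 with -0.40 each. Of the other Dlg4 probe sets, 1395468_at had -0.37 and 1389901_at -0.01. These signs did not hold in every pair: the highest r within a pair was 0.22, 0.39, 0.26 and 0.30 for 4 of the 5 Homer1 probe sets and -0.20 for 1370997_at. On Dlg4 it was 0.08 for 1387210_at and 1371183_a_at, 0.35 for 1395468_at and 0.41 for 1389901_at. Of the 9 measured markers of neurons in Slc17a6-using regions, 0 passed in any pair. Of all genes, 0.682% passed in HAD1, 3.75% in HAD2 and 0% in P, AA and sP, so few or none were to be found among 9.

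Homer1 encodes the scaffold whose short, activity-induced form uncouples the clusters that its long forms build. Which of these forms each of the 5 probe sets reads was not analysed here. None of the 5 passed in any pair or in the mean. On the brightest, 1368318_at, HAD1 had 9.75, 9.84 and 10.24 and LAD1 9.43, 9.92 and 10.33. HAD2 had 10.02, 10.33 and 10.84 and LAD2 9.93, 10.31 and 10.53. P had 11.08, 11.44 and 12.39 and NP 11.05, 11.60 and 12.19. The lines overlapped in these 3 pairs, with differences of 0.04, 0.05 and -0.09. AA had 10.78, 11.29 and 11.77 and ANA 10.98, 11.41 and 11.75. The sP arrays had 11.38, 11.71 and 12.02 and the sNP arrays 11.27, 11.53 and 12.02. Here too the lines overlapped, with differences of -0.10 and 0.14. Its widest interval, in P minus NP, ran from -0.46 to 0.27.

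The dimmer Homer1 probe sets had wider differences. On 1370997_at HAD1 averaged 6.93 ± 0.50 (SD, n = 9) and LAD1 7.44 ± 0.53 (SD, n = 10), a difference of -0.51 (SE 0.21, limma adjusted p = 0.346), while the other 4 Homer1 probe sets ran from 0.04 to 0.29 in this pair. On 1368319_a_at sP averaged 8.05 ± 0.46 (SD, n = 8) and sNP 7.65 ± 0.32 (SD, n = 9), a difference of 0.41 (SE 0.17, limma adjusted p = 0.9998), while 1370997_at had -0.38 in this pair. Without the doubted arrays these differences were -0.64 in HAD1 and 0.57 in sP, with adjusted p of 0.137 and 0.151 in limma. On 1370656_a_at the 5 differences ran from -0.13 in P to 0.29 in HAD1, and on 1370454_at from -0.05 in AA to 0.30 in HAD2.

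All 5 Homer1 probe sets varied together from array to array. With line means removed, their pairwise r over 96 arrays ran from 0.48 to 0.87, and 1368318_at and 1370656_a_at had 0.86. The 3 genes most like 1368318_at were Nedd4l, a ubiquitin ligase, with an r of 0.87 (0.73 to 0.96 within pairs), Plk2, an activity-regulated kinase, with 0.86 (0.62 to 0.96), and Kcnma1, a calcium-activated potassium channel, with 0.86 (0.75 to 0.93). All of these share the arrays and their scaling.

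**Figure D4:**
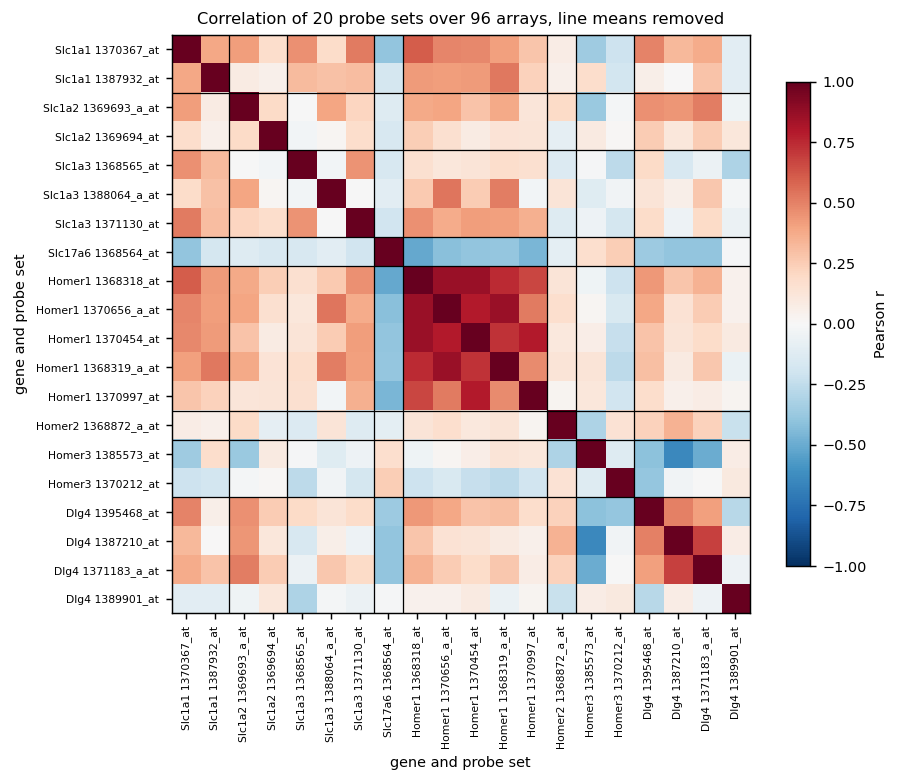
Pearson r between the 20 probe sets over 96 arrays is plotted with the mean of each line removed, genes being separated by black lines. The 5 Homer1 probe sets form the block with r from 0.48 to 0.87, while the 3 probe sets of Slc1a3 and the 2 of Homer3 do not follow each other as closely.

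Homer2 encodes a scaffold of the same family as Homer1. Its 1 probe set, 1368872_a_at, had negative differences in 4 of 5 pairs, 2 of them large, and passed in no pair with all arrays as labelled. Averaging 6.47 over all arrays, this probe set was not among the brighter 50% of all. Outside P and NP it may lie near background, which was not tested. In HAD1 the levels were 5.71, 6.10 and 6.37, against 5.50, 6.76 and 7.01 in LAD1. The ranges overlapped, but 7 of 10 LAD1 arrays lay above the highest HAD1 array, and the lowest LAD1 array is the doubted LAD1 37. The difference was -0.53 (SE 0.16, limma adjusted p = 0.141). It was -0.65 without LAD1 37 (adjusted p = 0.00396) and -0.66 without both doubted arrays (adjusted p = 0.00412 in limma). With LAD1 36 counted as HAD1 it was -0.45 (adjusted p = 0.424), and over the arrays left out in turn it ran from -0.65 to -0.49.

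In AA the Homer2 levels were 5.38, 5.91 and 6.17, against 5.61, 6.63 and 7.89 in ANA. The AA arrays lay close together (SD 0.25), while 5 of 10 ANA arrays lay above the highest AA array and the other 5 among the AA arrays, so that the ANA arrays had an SD of 0.96. Both doubted ANA arrays, at 5.70 and 5.73, were among the low ones. The difference was -0.82 (SE 0.29, 95% interval -1.41 to -0.23, limma adjusted p = 0.845), and -1.04 without the doubted arrays (adjusted p = 0.119). It passed when all 10 lines shared 1 estimate of the spread (adjusted p = 0.0494) and, at -1.19, with weights for array quality (adjusted p = 0.0297 in limma). The Homer2 SDs ran from 0.09 in LAD2 to 0.96 in ANA, so the shared estimate takes in lines that varied less than ANA.

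The other pairs had small differences on Homer2. HAD2 had 5.70, 5.85 and 6.14 and LAD2 5.82, 5.95 and 6.14, a difference of -0.09 (SE 0.05). P had 6.003, 8.16 and 9.02 and NP 7.02, 8.21 and 8.78, a difference of -0.11 (SE 0.29), at a level well above that of the other lines. Levels in sP were 5.30, 5.71 and 6.14 and in sNP 5.44, 5.65 and 5.86, a difference of 0.07 (SE 0.10). Only P and NP averaged above 7, with 7.96 ± 0.86 and 8.07 ± 0.52 (SD, n = 10 each), and all other lines averaged between 5.66 and 6.70. The mean over pairs was -0.30 (SE 0.10, limma adjusted p = 0.192), and -0.36 without the doubted arrays (adjusted p = 0.0414). The 5 differences did not pass the test of variation among pairs (adjusted p = 0.285 in limma). HAD1 and AA were therefore not shown to differ from the other pairs.

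Markers of other cell types are given for the pairs where Homer2 had its large differences. In HAD1 minus LAD1, where 0.682% of all genes passed, 2 of 9 microglia markers were lower, C1qc at -0.48 and Cx3cr1 at -0.40, and 0 were higher. Of 6 endothelial markers 1 was lower, Abcb1a at -0.67 (limma adjusted p = 0.0403), and 0 were higher. The mean of the microglia list per array ran from 8.93 to 9.34 in HAD1 and from 9.18 to 9.68 in LAD1. In AA minus ANA 0 markers of any list passed in limma, in a pair where 0% of all genes did. All 8 cortical and basolateral markers had positive differences there, with a median of 0.21. All 7 striatal and all 7 oligodendrocyte markers had negative ones, with medians of -0.23 and -0.17. The list means ran from 7.08 to 9.61 in AA and from 7.14 to 8.71 in ANA for the cortical and basolateral markers, and from 9.16 to 11.18 in AA and from 10.07 to 11.18 in ANA for the striatal ones. For the oligodendrocyte markers they ran from 12.24 to 14.02 in AA and from 13.08 to 13.94 in ANA. Their part in the Homer2 values was not tested.

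**Figure D5:**
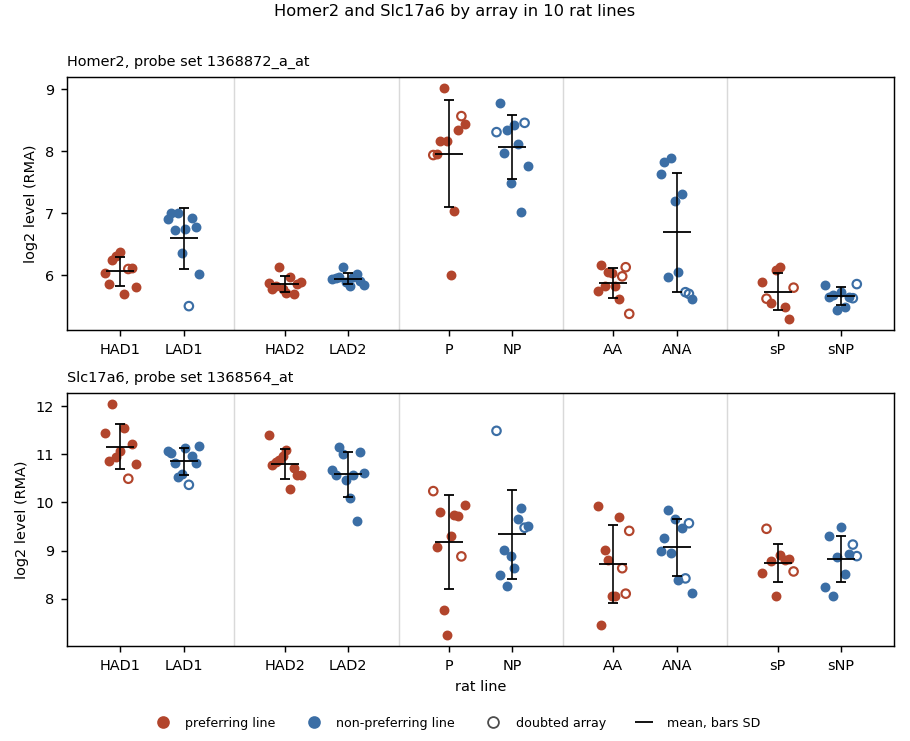
The log2 levels of Homer2 and Slc17a6 are plotted by array for the 10 lines, the preferring line left of its partner, with open points for doubted arrays and bars for mean and SD. Homer2 averages 7.96 in P and 8.07 in NP and between 5.66 and 6.70 elsewhere, with ANA arrays spread from 5.61 to 7.89, and Slc17a6 spreads over several log2 units in P and NP.

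The likeness of Homer2 to other genes was weak. The 3 highest r with line means removed were 0.48 for Iqce, 0.46 for Hdac10 and 0.46 for Mark2, a microtubule-regulating kinase, and that of Iqce ran from 0.07 to 0.60 within pairs.

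Homer3 encodes the third scaffold of the family, known in rodents for its expression in cerebellar Purkinje cells. Neither probe set passed in any pair. On the brighter one, 1385573_at, HAD1 had 7.58, 7.81 and 8.30 and LAD1 7.47, 7.82 and 8.01. HAD2 had 7.44, 7.55 and 7.97 and LAD2 7.51, 7.61 and 7.91. P had 6.40, 6.77 and 7.14 and NP 6.36, 6.70 and 7.02. The lines of these pairs overlapped, with differences of 0.03, -0.02 and 0.06. AA had 5.90, 6.26 and 7.86 and ANA 6.11, 6.30 and 7.91, a difference of -0.20 (SE 0.24), with most arrays of both lines low and few high. The high AA value is the doubted array AA 19. Levels in sP were 7.50, 7.76 and 8.26 and in sNP 7.64, 7.87 and 8.07, a difference of -0.03 (SE 0.10). The second probe set, 1370212_at, had differences from -0.12 in AA to 0.13 in HAD1 (SE 0.06, limma adjusted p = 0.427), and both probe sets had an r of -0.13 over 96 arrays with line means removed. The genes most like 1385573_at, Pla2g10, Bche and Mtarc2, had r from 0.76 to 0.77 over all arrays but down to -0.09 within single pairs.

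Dlg4 encodes the main scaffold of the postsynaptic density. None of its 4 probe sets passed in any pair, in the mean or in the test of variation. On the brightest, 1395468_at, HAD1 had 10.53, 11.22 and 11.45 and LAD1 10.70, 10.95 and 11.18, a difference of 0.16 (SE 0.10). HAD2 had 11.11, 11.56 and 11.75 and LAD2 11.08, 11.52 and 11.68, a difference of -0.04 (SE 0.09). P had 10.22, 10.50 and 10.94 and NP 9.94, 10.64 and 11.09, a difference of -0.12 (SE 0.11). The lines of each pair overlapped, as they did in the remaining pairs. AA had 10.44, 11.01 and 11.23 and ANA 10.55, 10.90 and 11.14, a difference of 0.02 (SE 0.10). Levels in sP were 10.25, 10.72 and 10.97 and in sNP 10.40, 10.70 and 11.07, a difference of -0.06 (SE 0.11). The mean over pairs was -0.0060 (SE 0.05, 95% interval -0.10 to 0.09).

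Of the other Dlg4 probe sets, 1389901_at had its largest difference in AA minus ANA. AA averaged 6.57 ± 0.17 and ANA 6.36 ± 0.11 (SD, n = 10 each), a difference of 0.21 (SE 0.07, limma adjusted p = 0.756). The differences of 1387210_at ran from -0.13 in HAD2 to 0.15 in AA and those of 1371183_a_at from -0.07 in P to 0.12 in HAD1. With line means removed, 1387210_at and 1371183_a_at had an r of 0.68 over 96 arrays, and 1389901_at had r between -0.28 and 0.07 with the other 3. The genes most like 1395468_at were Arhgef17 with an r of 0.86 (0.82 to 0.92 within pairs), Dbn1, an actin-binding protein of dendritic spines, with 0.85 (0.70 to 0.93), and Adgrb2, an adhesion receptor, with 0.85 (0.72 to 0.97).

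Likeness was also read for the 3 uptake carriers, again with line means removed over 96 arrays. Slc1a1 1370367_at was most like Me3, a malic enzyme, with an r of 0.73, then Btbd10 and Wdr13 with 0.72 and 0.71. Slc1a2 1369693_a_at was most like Npy1r, a neuropeptide Y receptor, and Grm7, a presynaptic glutamate receptor, with 0.64 each, then Acta1 with 0.62. Slc1a3 1368565_at was most like Vapa and Ttyh1, with 0.83 each, and Sub1, with 0.82, but its own r with the GAPDH ratio was 0.63.

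Levels between line pairs were described without a test, since the GAPDH ratio separated the 4 HAD and LAD lines from the other 6 and joint normalization is not recorded. On Dlg4 the mean levels of the 4 lines were 7.98 to 8.15 on 1387210_at and 6.38 to 6.87 on 1371183_a_at, below the 9.63 to 10.69 and 8.73 to 9.03 of the other 6. On 1389901_at the order was the opposite, with 6.98 to 7.32 in the 4 lines and 6.36 to 6.57 in the others. The brightest Dlg4 probe set, 1395468_at, also had the opposite order, with 10.97 to 11.51 in the 4 lines and 10.51 to 10.90 in the others. Homer1 1368318_at had 9.87 to 10.35 in the 4 lines and 11.31 to 11.71 in the others, and Homer3 1370212_at 5.01 to 5.14 and 5.93 to 6.27. Homer1 1370656_a_at and 1368319_a_at had the same order. The ranges overlapped on Homer1 1370454_at (8.11 to 8.58 and 8.18 to 8.89) and 1370997_at (6.93 to 7.56 and 6.57 to 7.59). They also overlapped on the brighter Homer3 probe set, 1385573_at (7.63 to 7.85 and 6.36 to 7.84). Within the 6 other lines neighbouring means of Homer1 1368318_at were closer than their SDs, which ran up to 0.46.

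The wider pathway was read through 2 lists of other genes, on 1 probe set per gene. Of glutamate and glutamine transport and metabolism, 18 of 20 genes were measured. In HAD2 minus LAD2 1 of 18 passed, in a pair where 3.75% of all genes did, with 1 lower and 0 higher. It was Slc7a11, the cystine-glutamate exchanger, with a mean level of 10.68 ± 0.23 in HAD2 rats and 11.01 ± 0.16 in LAD2 rats (SD, n = 10 each), a difference of -0.32 (limma adjusted p = 0.0293). In the other 4 pairs and in the mean over pairs 0 of 18 passed in limma, against 0.682% of all genes in HAD1, 0% in P, AA and sP and 0.816% in the mean. The median differences of the list lay between -0.03 in sP and 0.06 in P.

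Of postsynaptic scaffolds and Homer partners, 28 of 31 genes were measured. In both HAD1 and HAD2 1 of 28 passed, lower in the preferring line each time, against 0.682% and 3.75% of all genes. In P, AA and sP 0 of 28 passed in limma, against 0% of all genes in each. In the mean over pairs 1 of 28 passed, also lower, against 0.816%. The gene was Grm5 each time, the metabotropic glutamate receptor that Homer proteins bind. In HAD1 it averaged 6.82 ± 0.22 (SD, n = 9), and in LAD1 7.86 ± 0.63 (SD, n = 10), a difference of -1.04 (SE 0.20, limma adjusted p = 0.00985). HAD2 averaged 6.63 ± 0.42, and LAD2 8.79 ± 0.64 (SD, n = 10 each), a difference of -2.16 (SE 0.22, limma adjusted p = 4.19e-07). P, AA and sP had differences of -0.43, 0.21 and 0.16, and the mean over pairs was -0.65 (SE 0.10, limma adjusted p = 1.72e-06). With the 5 pairs as the replicates 0 of 31042 probe sets passed in the mean, so that this call was lost there. A second Grm5 probe set gave 0.05 in HAD1 and -0.40 in HAD2 (limma adjusted p = 0.820 and 0.00450), and -0.05 in the mean over pairs (adjusted p = 0.954). The calls in HAD1 and in the mean were thus made on 1 of 2 probe sets.

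Without the doubted arrays Glud1, glutamate dehydrogenase, passed at 0.21 in P, Dlg1, a scaffold related to Dlg4, at -0.22 in AA, and Grm5 at -0.71 in P (limma adjusted p = 0.0106, 0.0113 and 0.0280). Of all probe sets 1.62% passed in P and 1.8% in AA without these arrays. In sP 0 genes of either list passed, against 1.75% of all probe sets.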

How the data were processed

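The deposited values are log2 levels that the authors made with RMA, per the submitters' processing notes, from biotin-labelled cRNA prepared from 25 ng of total RNA by a 2-cycle protocol, per the labels' protocols. Its version, and whether all 96 arrays were normalized at once, is not stated in the labels used here. Groups were taken from the sample titles, and 0 value columns belonged to no sample. Without the 57 control probe sets, 31042 were tested. In the platform annotation 20826 carried 1 gene symbol, 436 several and 9780 were not listed here. Of the first, 20758 matched a RefSeq table of the GRCr8 assembly by gene identifier, and 0 symbols changed. No detection calls were used, so a dim probe set was not told apart from background, and precision is limited by how many arrays there are.

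Each pair had a fit of its own with limma 3.58.1 in R 4.3.3 (lmFit and eBayes with an intensity trend), with no preset direction and Benjamini-Hochberg adjustment over all 31042 probe sets at a threshold of 0.05. A fit of all 10 lines gave the mean of the 5 differences and the F test of their variation. The scripts were tested on simulated data. Where 1 probe set stood for a gene, the brightest was taken. Likeness is Pearson's r over 96 arrays after line means were removed, with the 3 highest genes named. Per-array values are given for probe sets that passed a test and for the brightest of each member. Doubted arrays were scored, without the array itself, on the 100 probe sets with the clearest separation of its 2 lines, for odd and even chromosomes apart. The members and lists were chosen with earlier results of these data known. Alternatives changed the spread, trend, filter, weights, normalization, GAPDH covariate, replicate block, arrays and pairs used, and the unit of replication. Probe and protein sequences were not used here.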

Additional observations from a re-analysis of the deposited data

Results flagged for a closer look

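Among the 200 combinations of line and member probe set, 11 held 1 array far from the others of its line, in 10 distinct arrays. Chance alone marks about 1 group in 20, and these combinations share arrays, so the number was not tested against chance. On Slc1a3 1388064_a_at, NP 10 stood at 8.12, below the other NP arrays at 9.09 to 9.75. On Slc17a6, the doubted NP 1 stood at 11.49, above the others at 8.27 to 9.89. On Homer1 1370454_at, HAD2 9 stood at 10.01 and the doubted P 9 at 10.67, above the others of their lines, which reached 8.80 in HAD2 and 9.22 in P. On Homer3 1385573_at, the doubted AA 19 stood at 7.86, above the others at 5.90 to 6.46, and the same array was low on Dlg4 1387210_at, at 9.63 against 10.39 to 11.01.

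Dlg4 held the other 5 outlying values. LAD2 11 was low on 1395468_at, at 11.08 against 11.40 to 11.68. LAD2 14 was high on 1387210_at, at 8.53 against 7.96 to 8.26. On 1371183_a_at, LAD1 39 was high at 6.93 and HAD2 8 at 7.43, against up to 6.51 in the other LAD1 arrays and up to 6.99 in the other HAD2 arrays. On 1389901_at the doubted P 1 was low, at 6.01 against 6.44 to 6.74.

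For 3 probe sets the preferring minus non-preferring difference itself differed among the 5 pairs in limma's F test: Slc1a2 1369693_a_at (adjusted p = 0.0317), Slc1a2 1369694_at (adjusted p = 0.0210) and Slc1a3 1371130_at (adjusted p = 0.000462).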

How the results depend on the processing

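Of 3327 values recomputed for the 20 probe sets under single alternatives, 0 turned the direction of a call, 11 came past the threshold and 9 lost it. Another 165 changed sign where neither setting gave a call. Few signed values were calls, and the F values among the 3327 have no sign. With all arrays as labelled, the number of members past limma's test was 0 in HAD1, 1 in HAD2, 0 in P, AA and sP, 1 in the mean over pairs and 3 for variation among pairs. In HAD1 it was 1 with array weights (Slc1a2 1369693_a_at, 0.32, adjusted p = 0.0494), 1 with the GAPDH ratio as a covariate (Homer2, -0.62, adjusted p = 0.0421) and 1 without the doubted arrays, and it ran from 0 to 1 over the arrays left out in turn. In HAD2 it was 0 with 1 probe set per gene, since 1371130_at is not the brightest of Slc1a3. In AA it was 1 with all 10 lines in 1 fit and 1 with array weights, Homer2 both times. For the mean it was 0 with 1 probe set per gene, 2 with array weights, 0 without HAD2 and LAD2, 2 without P and NP, 0 with the line pair as replicate and 2 without the doubted arrays. The second member in these was Homer2, at -0.40 with array weights, -0.34 without P and NP and -0.36 without the doubted arrays. For variation it was 1 with 1 probe set per gene, 5 with array weights, 1 without HAD1 and LAD1, 0 without HAD2 and LAD2, and 1 without AA and ANA. Array weights added Slc1a1 1370367_at (adjusted p = 0.0434) and Homer2 (adjusted p = 0.00587) there. Calls over all probe sets moved as well, from 299 in HAD1, 0 in AA, 306 in the mean and 1409 for variation. They were 700, 207, 692 and 3972 of 31042 with array weights. In HAD1 334 passed with the GAPDH covariate, and in AA 203 with all 10 lines in 1 fit. For the mean they were 73 without HAD2 and LAD2 and 365 without P and NP. For variation they were 946 without HAD1 and LAD1, 409 without HAD2 and LAD2 and 1347 without AA and ANA. With the line pair as replicate 0 probe sets passed in the mean, and without the doubted arrays 901. With 1 probe set per gene, of 14217, 526 passed in HAD2, 108 in the mean and 543 for variation. Beyond what is given, the cause of these changes was not tested. A replicate block on the animal number left 0 members and 0 probe sets past the test in P and NP and in sP and sNP. Same-numbered arrays did not vary together throughout, with r over 0.1 for 5 of 10 numbers in P and NP and 3 of 8 in sP and sNP, so the numbers were not taken as pairs. Over all probe sets, leaving out arrays in turn gave 157 to 600 calls in HAD1, against 299 with all arrays, 4 with LAD1 36 counted as HAD1 and 796 without the doubted arrays.

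Arrays, not animals of independent descent, are the replicates, and without the doubted arrays the differences rest on arrays chosen by their values. The 95% interval of a difference reached 0.18 to 0.26 log2 units to either side at the median probe set of a pair, and less at probe sets that varied less. The probe sets of a gene often disagreed, and dim ones such as Homer3 1370212_at, and that of Homer2 outside P and NP, may lie near background.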

Other observations

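Slc1a3 1371130_at and Grm5 1393665_at had differences of 0.89 and -2.16 in HAD2 minus LAD2, while other probe sets of the same genes gave 0.03 and 0.06 for Slc1a3 and -0.40 for Grm5. On Homer2 the ANA arrays fell on either side of the highest AA array, 5 above it and 5 not. Among the markers of other cell types in HAD2 minus LAD2, P2ry12, a microglial receptor, was higher at 0.64 and Cx3cr1, another, was lower at -0.30 (limma adjusted p = 4.62e-06 and 0.00330). Only 2 of the 9 microglia markers had positive differences there, and the median of the list was -0.23. The endothelial marker Abcb1a was higher at 0.66 and Tek lower at -0.28 in the same pair (limma adjusted p = 0.00933 and 0.0235), while Abcb1a was lower at -0.67 in HAD1 minus LAD1.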
